A study of Mus musculus with 8 samples.

Results

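Genes of the mTOR, PI3K and integrated stress response pathways were described in cultured sacral neural crest cells of Sox10 mutant and wild-type mouse embryos. The listed members were Deptor, Ddit4, Rptor, Rps6kb1, Akt1, Pik3r1, Atf4 and Ddit3. A probe set paired with 1 gene symbol represented 7 of the 8, out of 6855 genes measured in this way, and each of the 7 had 1 such probe set. The expression of Rps6kb1, which encodes S6 kinase 1, was not analysed here. The genes were chosen by their levels and their Dom/Dom minus wild-type differences at each replicate number, on all 8 arrays, so those differences are given below as a description, with no test.

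The study compared 4 cultures from embryos homozygous for Dom, a frameshift allele of the crest transcription factor gene Sox10, with 4 cultures from wild-type embryos, each measured on an Affymetrix Mouse Gene 1.0 ST array. In both genotypes the neural tube behind somite 24 was dissected at embryonic day 9.5, grown for 24 hours in DMEM/F12 with 10% fetal bovine serum and taken away, and RNA came from the crest cells left on the dish. Strain, sex and litter are not given in the sources used here, and nothing in the labels states that replicates came from separate embryos, so the p-values cover the variation among these cultures only, which may be technical. Levels are log2 values from RMA, an array procedure with background correction, normalisation and a summary over each probe set's probes. The arrays held medians from 8.60 to 8.78 and carried no detection calls, so absence of a transcript could not be judged.

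mTOR is a kinase that promotes protein synthesis and growth when nutrients and growth factors are present, and it works in a complex built around raptor and in another built around rictor. Growth factor receptors reach it through PI3K and AKT, while inhibitors such as DEPTOR and the product of Ddit4 hold it back. The integrated stress response is the counterpart for shortage and damage: phosphorylation of the initiation factor eIF2 lowers general translation and favours translation of ATF4, which induces amino acid supply genes and the factor CHOP, encoded by Ddit3. The neural crest is a migratory population of the embryo that forms glia, melanocytes and peripheral neurons, and Sox10 is active in its glial and pigment lineages.

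Deptor encodes an inhibitory partner found in both mTOR complexes, and it lay lower in Dom/Dom cultures. Its log2 level was 10.32, 10.29, 11.06 and 11.14 in wild-type replicates 1 to 4 and 9.27, 9.59, 9.26 and 9.47 in the Dom/Dom replicates of the same numbers. The groups did not overlap: the lowest wild-type array stood 0.69 log2 units above the highest Dom/Dom array. Wild-type cultures fell into a lower set, replicates 1 and 2, and a higher set, replicates 3 and 4, whereas the Dom/Dom cultures lay within a narrow band. The Dom/Dom mean was 9.40 ± 0.16 and the wild-type mean 10.70 ± 0.46 (SD, n = 4), a difference of -1.31 on the log2 scale, or 2.47-fold. Among the 6855 genes this was the fall of rank 8.

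Between same-numbered arrays the Deptor difference was 2.08-fold for replicate 1, 1.62-fold for replicate 2, 3.49-fold for replicate 3 and 3.19-fold for replicate 4, lower in Dom/Dom each time. The difference was larger at the 2 numbers whose wild-type level was high. In wild type the mean of replicates 3 and 4 exceeded that of replicates 1 and 2 by 0.80 log2 units, a shift reached by 0.525% of all genes. In Dom/Dom the same contrast was -0.06. Sox10 itself differed between same-numbered arrays by -1.69, -0.52, -1.37 and -1.20. Replicate 2 had the smallest difference for both genes, while the largest was at replicate 1 for Sox10 and at replicate 3 for Deptor. The wild-type shift of Sox10 between the replicate sets was 0.26.

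**Figure D1:**
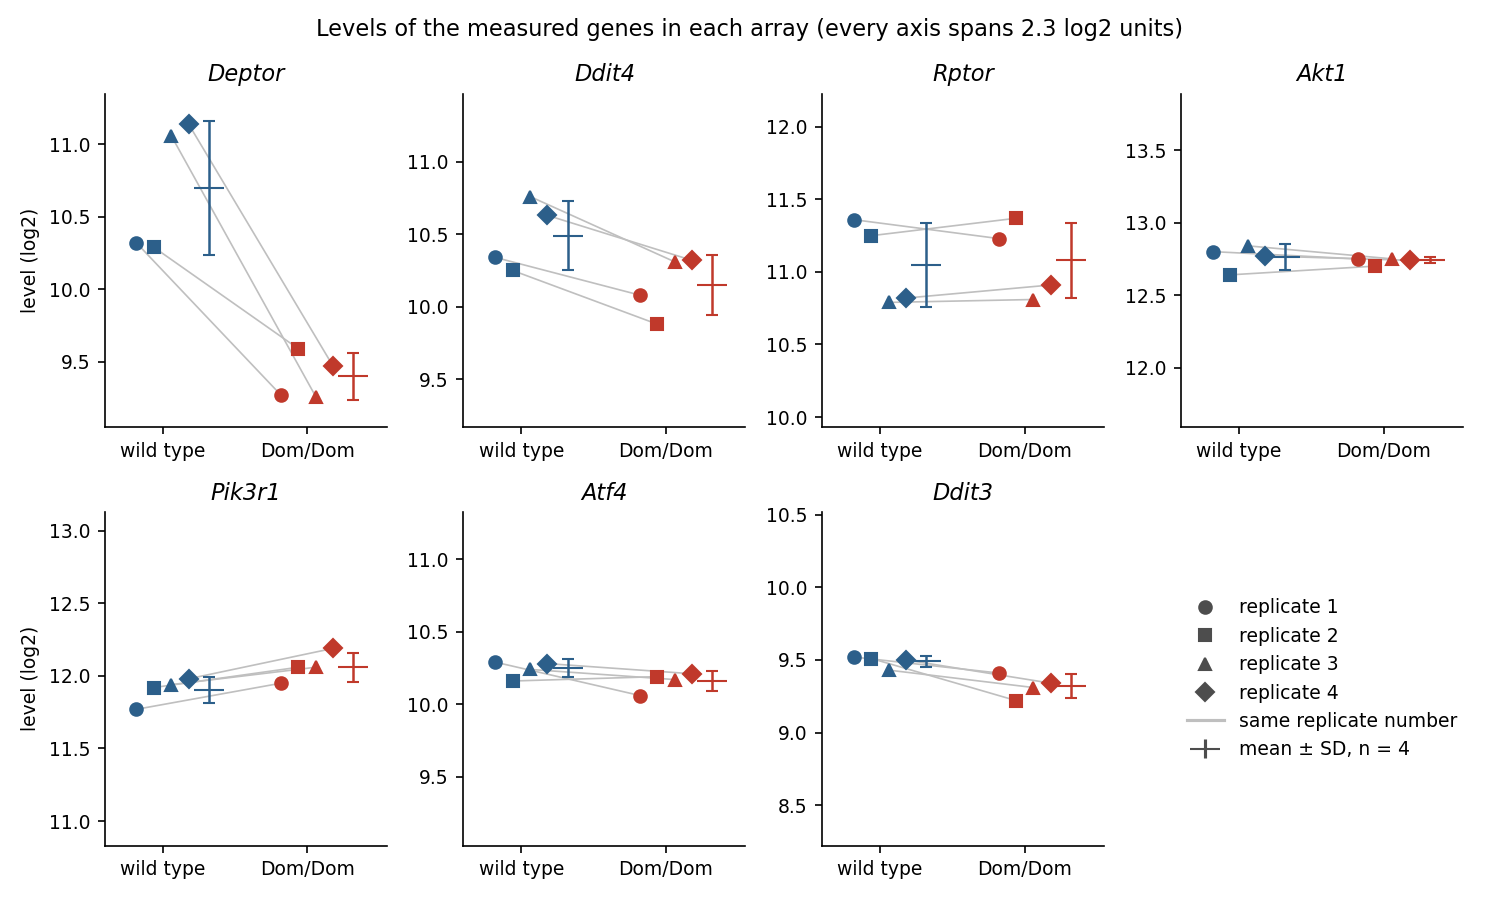
Log2 level of the 7 measured genes in each array, with wild type in blue and Dom/Dom in red, replicate number by symbol, grey lines between same-numbered arrays, and mean ± SD (n = 4) beside the points. Deptor is separated between genotypes with a mean of 10.70 in wild type and 9.40 in Dom/Dom, Rptor splits by replicate number in both genotypes, and Akt1 and Atf4 stay nearly level.

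The genes whose levels followed Deptor most closely were ranked by Pearson correlation over the 8 arrays. The first 5 were Cnp (r = 0.998), an enzyme of myelinating glia, Adam23 (r = 0.994), a membrane protein of the disintegrin family, Aldh1l2 (r = 0.990), a mitochondrial enzyme of folate metabolism, Ctsl (r = 0.984), the lysosomal protease cathepsin L, and Lama4 (r = 0.984), a laminin chain. Since all arrays are shared and the genotype difference adds to these values, the ranking was repeated on deviations from the genotype means. Cnp (r = 0.994), Adam23 (r = 0.967) and Lama4 (r = 0.957) were again among the first 5, beside Rftn2 (r = 0.959), a lipid raft protein, and the mitochondrial iron importer gene Slc25a37 (r = 0.956). At r of 0.95 or more there were 28 genes by level and 7 by deviation. These correlations describe 8 arrays and carry no test.

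Cnp showed how close the match was. It stood at 10.16, 10.08, 10.95 and 10.96 in wild-type replicates 1 to 4 and at 9.17, 9.54, 9.26 and 9.38 in Dom/Dom replicates 1 to 4, so it had the same higher and lower wild-type cultures as Deptor. Aldh1l2 ran from 9.94, 10.07, 10.64 and 10.88 in wild type to 9.10, 9.33, 9.01 and 9.45 in Dom/Dom. Lama4 had a larger genotype difference, -2.50, with the same division among the wild-type cultures, where replicates 3 and 4 exceeded 1 and 2 by 0.99. For Ctsl the genotype difference was -0.32 and that wild-type shift 0.23.

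**Figure D2:**
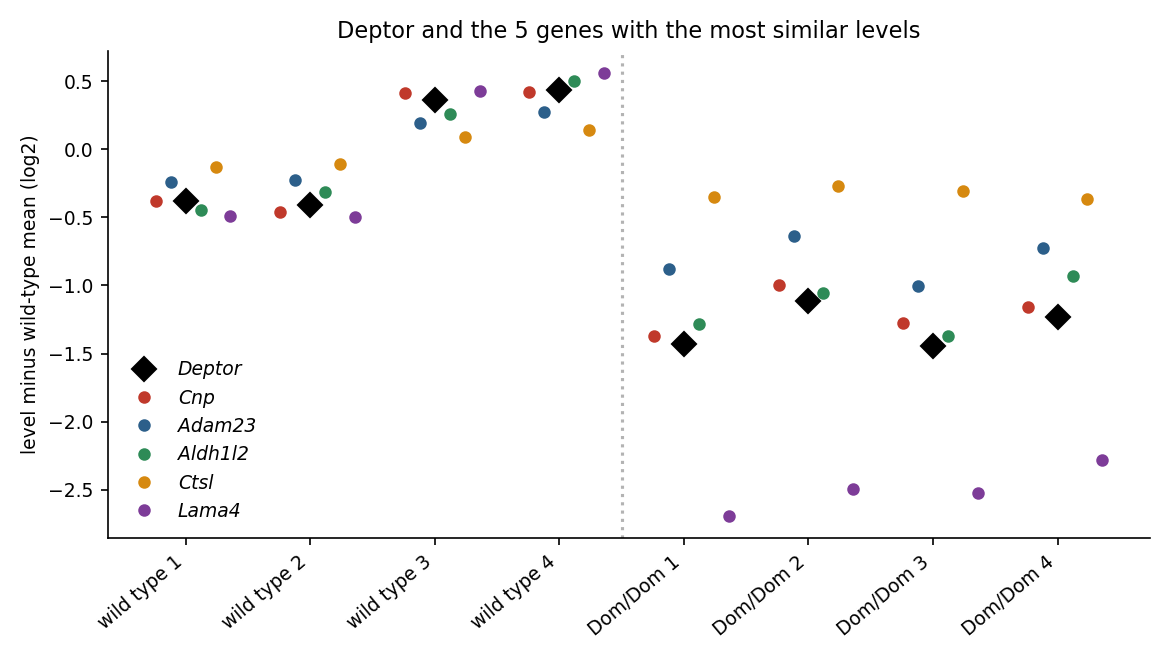
Level of Deptor (black diamonds) and of the 5 genes most like it (coloured circles) in each array, as log2 level minus the gene's own wild-type mean. Wild-type replicates 3 and 4 lie above replicates 1 and 2 for all 6 genes, and the Dom/Dom arrays lie below every wild-type array, by least for Ctsl.

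Lists of cell type markers, chosen with earlier results of these data known, were examined beside Deptor. Their counts are therefore a description and no test of a cell type. Genotypes were compared over all 6855 genes with limma, with Benjamini-Hochberg adjustment and a threshold of 0.05, which called 0.481% of genes, 0.408% lower and 0.0729% higher in Dom/Dom. A fit that blocked on replicate number called 1.50% of genes, 1.05% lower and 0.452% higher. Of 12 measured markers of glia and Schwann cell precursors, 6 fell (Cdh19, Erbb3, Cnp, Adgrg6, Gas7 and Cmtm5) and 1 rose (Sostdc1), with limma adjusted p from 0.00166 to 0.0446. In the blocked fit Gas7 (adjusted p = 0.0566) and Cmtm5 (adjusted p = 0.0533) did not pass. The other 5 (Fabp7, Gfap, S100b, Pmp22 and Dhh) differed by -0.09 to -0.04 and did not pass. The mean log2 level of this list ran from 9.56 to 9.70 in Dom/Dom and from 10.20 to 10.58 in wild type. Of 3 melanoblast markers, Dct and Pmel fell (limma adjusted p = 0.00152 each) and Slc45a2 did not pass (adjusted p = 1.00), and the list mean ran from 8.03 to 8.38 against 9.25 to 9.88.

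The other cell type lists moved less. Of 9 measured crest markers, Sox10 fell (limma adjusted p = 0.0168), as did Tfap2a with the replicate block (adjusted p = 0.0418). The others passed in neither fit. Ngfr (-0.95), Ednrb (-0.92) and Snai2 (-0.19) lay below 0, and Sox9, Pax3, Twist1 and Msx2 differed by 0.05 to 0.10. The list mean ran from 11.13 to 11.28 in Dom/Dom and from 11.40 to 11.65 in wild type. Lists of neurons (8 measured), smooth muscle (4), somite and lateral mesoderm (5), epithelium (8), endothelium (1) and blood (3) had 0 members past the threshold without the block. With the block Pou4f1 fell among neuronal genes, Krt8 fell among epithelial genes and Prrx1 rose among mesodermal genes, with limma adjusted p of 0.00744, 0.0164 and 0.0339. Smooth muscle list means ran from 9.93 to 10.12 in Dom/Dom and from 9.59 to 9.96 in wild type. The part of cell composition in the Deptor difference was not tested, and in these bulk cultures fewer cells of a type and less RNA per cell cannot be told apart.

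Ddit4 encodes REDD1, which restrains mTOR through the TSC complex and is induced by low oxygen, glucocorticoids and ATF4. Its log2 level was 10.34, 10.25, 10.76 and 10.63 in wild-type replicates 1 to 4 and 10.08, 9.88, 10.31 and 10.32 in the Dom/Dom replicates. Each Dom/Dom culture was below the wild-type culture of its number, by -0.26, -0.37, -0.45 and -0.31, while the groups as a whole overlapped by 0.07 log2 units. The Dom/Dom mean was 10.15 ± 0.21 and the wild-type mean 10.49 ± 0.24 (SD, n = 4), a difference of -0.34 or 1.27-fold. The differences within numbers had an SD of 0.08, against a pooled SD of 0.22 between cultures of a genotype.

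Rptor encodes raptor, the scaffold that brings substrates to mTOR complex 1. Its log2 level was 11.36, 11.25, 10.79 and 10.82 in wild-type replicates 1 to 4 and 11.23, 11.37, 10.81 and 10.91 in the Dom/Dom replicates. Replicates 1 and 2 were high and replicates 3 and 4 low in both genotypes, and the genotypes overlapped. The Dom/Dom mean was 11.08 ± 0.26 and the wild-type mean 11.05 ± 0.29 (SD, n = 4), a difference of 0.02, which turned to -0.04 when array medians were subtracted. The step from replicates 1 and 2 to replicates 3 and 4 was -0.50 in wild type and -0.44 in Dom/Dom, many times the genotype difference. Ddit4 stepped the other way, by 0.40 in wild type and 0.33 in Dom/Dom, and over the 8 arrays the deviations of Ddit4 and Rptor from their genotype means correlated at r = -0.95. These steps were read from the levels the genes were chosen by, and are given with no test.

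**Figure D3:**
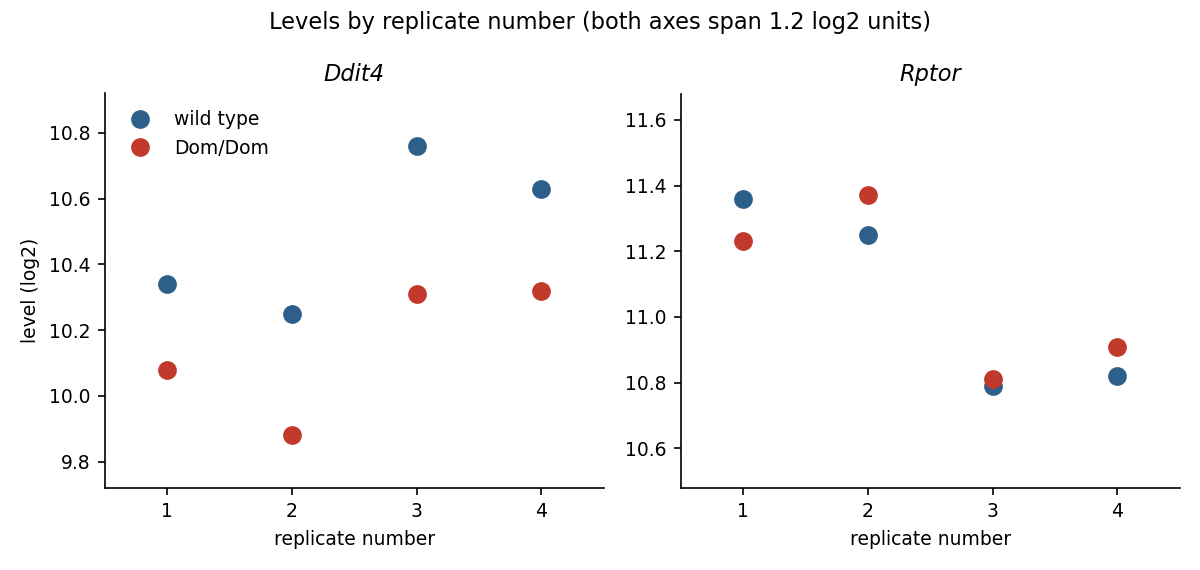
Log2 level of Ddit4 and Rptor by replicate number, wild type in blue and Dom/Dom in red, 1 point per array. Ddit4 is lower in Dom/Dom at each number and higher in replicates 3 and 4, whereas Rptor is lower in replicates 3 and 4 with no constant order of the genotypes.

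Akt1 and Pik3r1 stand upstream of mTOR. Akt1 encodes the kinase that PI3K activates, and its log2 level was 12.80, 12.64, 12.84 and 12.77 in wild-type replicates 1 to 4 and 12.75, 12.70, 12.75 and 12.74 in the Dom/Dom replicates. The Dom/Dom arrays lay inside the wild-type range, and the difference of means was -0.03. The pooled SD of Akt1 was 0.06, and 95.7% of genes had a larger one.

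Pik3r1 encodes p85 alpha, the regulatory subunit of class I PI3K. Its log2 level was 11.77, 11.92, 11.94 and 11.98 in wild type and 11.95, 12.06, 12.06 and 12.19 in Dom/Dom, replicates 1 to 4. It was the member that lay higher in Dom/Dom at every number, by 0.18, 0.13, 0.12 and 0.21. The means were 12.06 ± 0.10 and 11.90 ± 0.09 (SD, n = 4), a difference of 0.16 or 1.12-fold, and the groups overlapped by 0.03.

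Atf4 and Ddit3 encode the transcription factors of the integrated stress response. ATF4 is controlled largely at translation, which an array does not measure. The Atf4 log2 level was 10.29, 10.16, 10.24 and 10.28 in wild-type replicates 1 to 4 and 10.06, 10.19, 10.17 and 10.21 in the Dom/Dom replicates. The groups overlapped and the difference of means was -0.09, with replicate 1 at -0.23 and replicate 2 at 0.02.

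Ddit3, the gene of the pro-apoptotic factor CHOP, lay at 9.52, 9.51, 9.43 and 9.5 in wild type and at 9.41, 9.22, 9.31 and 9.34 in Dom/Dom, replicates 1 to 4. Dom/Dom was lower at each number, by -0.11, -0.29, -0.12 and -0.17, and the groups were separated by a gap of 0.02. The means were 9.32 ± 0.08 and 9.49 ± 0.04 (SD, n = 4), a difference of -0.17 or 1.13-fold. Ddit3 and Ddit4 were thus both lower in every same-numbered comparison, yet their deviations within genotype did not run together (r = -0.03 over 8 arrays).

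**Figure D4:**
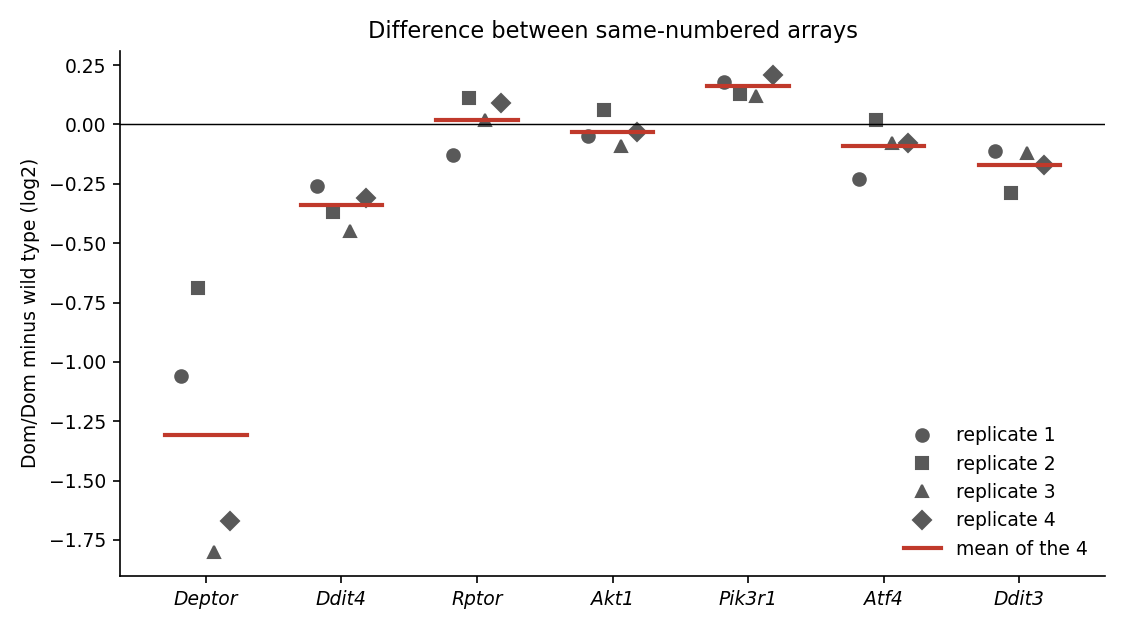
Difference between the Dom/Dom and the wild-type array of the same replicate number (log2) for each measured gene, 1 symbol per number, with the mean of the 4 as a red line. Deptor spreads from -1.80 to -0.69, Ddit4 and Ddit3 lie below 0 and Pik3r1 above 0 at all 4 numbers, and Rptor, Akt1 and Atf4 fall on both sides of 0.

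The stretches upstream of the 3 stress response genes are shown because Ddit4 and Ddit3 are known targets of ATF4 and both lay lower at each number, while Atf4 itself did not. They are the 250 bases before the RefSeq start, on the gene's strand in build GRCm38.p6, at chr10:59951771-59952020 for Ddit4 (minus strand), chr10:127290543-127290792 for Ddit3 (plus strand) and chr15:80254934-80255183 for Atf4 (plus strand). Capitals mark the CCAAT box, the binding sequence of the general factor NF-Y, written as CCAAT or as its complement ATTGG.
Ddit4: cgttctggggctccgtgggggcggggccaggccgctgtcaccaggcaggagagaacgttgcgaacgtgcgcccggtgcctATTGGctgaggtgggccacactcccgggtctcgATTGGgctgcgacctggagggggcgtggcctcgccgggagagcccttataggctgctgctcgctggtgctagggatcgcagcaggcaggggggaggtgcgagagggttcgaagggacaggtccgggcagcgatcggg
Ddit3: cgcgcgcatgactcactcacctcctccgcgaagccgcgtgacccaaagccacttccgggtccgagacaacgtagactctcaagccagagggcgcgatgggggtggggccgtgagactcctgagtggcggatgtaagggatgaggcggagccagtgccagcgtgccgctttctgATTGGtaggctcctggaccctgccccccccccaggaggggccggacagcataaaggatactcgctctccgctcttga
Atf4: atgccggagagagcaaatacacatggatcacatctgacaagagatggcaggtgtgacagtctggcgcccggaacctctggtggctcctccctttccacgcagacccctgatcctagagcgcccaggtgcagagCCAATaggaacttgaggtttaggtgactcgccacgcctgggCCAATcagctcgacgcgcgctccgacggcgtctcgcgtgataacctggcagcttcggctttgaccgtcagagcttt

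A CCAAT box occurred at 170 and 137 bases before the start of Ddit4, at 77 bases before that of Ddit3 and at 117 and 76 bases before that of Atf4, counted to the box's first base as printed. It was found in 33.8% of all 32851 RefSeq promoter windows of this length, and at least 2 boxes were found in 10.1%; this motif was chosen after the sequences were seen. The C/EBP-ATF response element, which ATF4 binds, was searched on both strands as TGATGNAA, and the SOX core as ACAAAG and ACAATG. None of these letters occurred in the 3 windows. They were found in 3.45%, 16.5% and 10.7% of all windows. Bases further upstream or past the start were not searched, so an element there would be missed. The same search covered the promoter windows of Rptor, Rps6kb1, Akt1 and Pik3r1, while that of Deptor was not analysed here. ACAAAG occurred in those of Rptor, Rps6kb1 and the second of the 2 Pik3r1 start sites. A CCAAT box occurred at 50 bases before the first Pik3r1 start, and the Akt1 windows held none of the motifs. A match describes letters in a window and shows no binding.

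Of the 7 measured members, Deptor and Ddit3 had groups that did not overlap, both lower in Dom/Dom; 3.78% of all genes did so, 2.60% lower and 1.18% higher. Deptor, Ddit4 and Ddit3 were lower at all 4 numbers, as were 10.7% of genes, and Pik3r1 was higher at all 4, as were 10.4%; 21.1% of genes kept 1 direction at all 4. The median difference over the 7 was -0.09, against 0.00 over all genes (-0.001 before rounding). These counts follow from how the genes were listed.

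To place them among their pathways, 245 other genes of mTOR, PI3K, AMPK and stress signalling were listed, of which 93 were measured. Of these 93, 0 passed the limma comparison of genotypes and 0 passed with the replicate block, where 0.481% and 1.50% of all genes did. Without adjustment 2 had p under 0.05, both lower in Dom/Dom, and 6.11% of all genes did. Their differences ran from -0.39 to 0.30 with a median of -0.01, 47 below 0 and 46 above. A gene that missed the threshold was not shown to be equal in the genotypes. For 4 of the 93 (Rps6, Map1lc3b, Akt2 and Sec61b) RefSeq placed the gene off chromosomes 1 and 10 to 16. Those chromosomes hold 97.9% of the measured genes, so the values of the 4 are uncertain. The counts above include them. Of the 89 others 0 passed with or without the block, and 46 differences were below 0 and 43 above. A probe set from another of the listed chromosomes would not be caught this way.

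Other parts of the mTOR complexes and the TSC and Rheb switch were held by 4 genes, with differences from -0.23 to 0.09. Tbc1d7, the third subunit of the TSC complex, differed by -0.23 (SE 0.19), and Rictor, the scaffold of mTOR complex 2, by 0.09 (SE 0.11), with limma adjusted p = 1.00 for both. Genes that sense amino acids at the lysosome (7 measured, median -0.12) had 5 of 7 below 0. Flcn, which encodes folliculin, an activator of Rag GTPase signalling, differed by -0.21 (SE 0.09; limma adjusted p = 0.771, 0.131 with the replicate block). Its partner Fnip1 differed by -0.16 (SE 0.08; adjusted p = 0.855). Both were lower at 4 of 4 numbers.

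Of 11 measured outputs of mTOR complex 1, Lpin1, which encodes the phosphatase lipin 1, had the largest difference. Its level was 9.97, 9.75, 9.70 and 9.90 in Dom/Dom replicates 1 to 4 and 10.10, 10.01, 10.20 and 10.24 in wild type. The groups did not overlap, and the difference was -0.31 (SE 0.09; limma adjusted p = 0.285, and 0.0998 in the blocked fit). The gene passed with array weights (limma adjusted p = 0.0232), where 190 of all 6855 genes did. It also passed in the blocked fit without both arrays of replicate 1 (adjusted p = 0.0238), where 475 of all genes did. Maf1, a repressor of RNA polymerase III, differed by -0.14 (SE 0.12). The translation factors Eif4b, Eif4a1 and Eef2 differed by 0.04, 0.03 and -0.03, and Larp1, which binds messages of ribosomal proteins, by 0.04. The number of the Eif4a1 probe set lies among those of chromosome 1 genes, while RefSeq places Eif4a1 on chromosome 11. The Eif4a1 value is therefore uncertain.

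Among 11 genes that start autophagy, Wipi1, a phosphoinositide-binding protein of the forming autophagosome, differed by -0.39 (SE 0.19; limma adjusted p = 0.923), lower at 3 of 4 numbers. Map1lc3b, 1 of the 4 genes with uncertain values, differed by -0.19 (SE 0.19). The 18 measured genes of PI3K, AKT and their brakes had a median of 0.01. Sgk1, a kinase related to AKT that serum and glucocorticoids induce, differed by 0.30 (SE 0.20; adjusted p = 1.00) and Sgk3 by -0.23 (SE 0.21; adjusted p = 1.00). In the blocked fit without both arrays of replicate 1 Sgk1 passed (difference 0.42, limma adjusted p = 0.0167), where 475 of all genes did. In the AMPK and LKB1 list (9 measured) the scaffold gene Cab39l differed by -0.15 (SE 0.16) and the AMPK catalytic subunit gene Prkaa1 by 0.09 (SE 0.16).

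The stress lists were close to 0 for the part of their genes that was measured. In the list of eIF2 kinases, phosphatases and exchange factors 4 of 17 genes were measured, with differences from -0.03 to 0.04. The eIF2 kinases were not among the 4, which included Dnajc3, an inhibitor of those kinases (0.04, SE 0.11), and the exchange factor subunit gene Eif2b5 (-0.03, SE 0.07). Of 51 listed targets of ATF4 and CHOP the 15 measured had a median of -0.01, 8 below 0 and 7 above. Tnfrsf10b, a death receptor gene that CHOP induces, differed by 0.21 (SE 0.14; limma adjusted p = 1.00). It passed in the blocked fit without both arrays of replicate 1 (difference 0.32, adjusted p = 0.0262), where 475 of all genes did. Atf3, a stress-induced transcription factor, differed by 0.17 (SE 0.10; adjusted p = 1.00). The amino acid transporter genes Slc38a2 and Slc1a4 differed by 0.04 and -0.11, and the serine and folate enzymes Shmt2 and Mthfd1l by -0.13 and -0.10. For the IRE1 and ATF6 arms of the unfolded protein response 14 of 32 listed genes were measured. Their median was 0.01, and the largest differences were those of Derl1 (-0.12, SE 0.08) and Creld2 (0.11, SE 0.08). Xbp1 differed by -0.03.

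**Figure D5:**
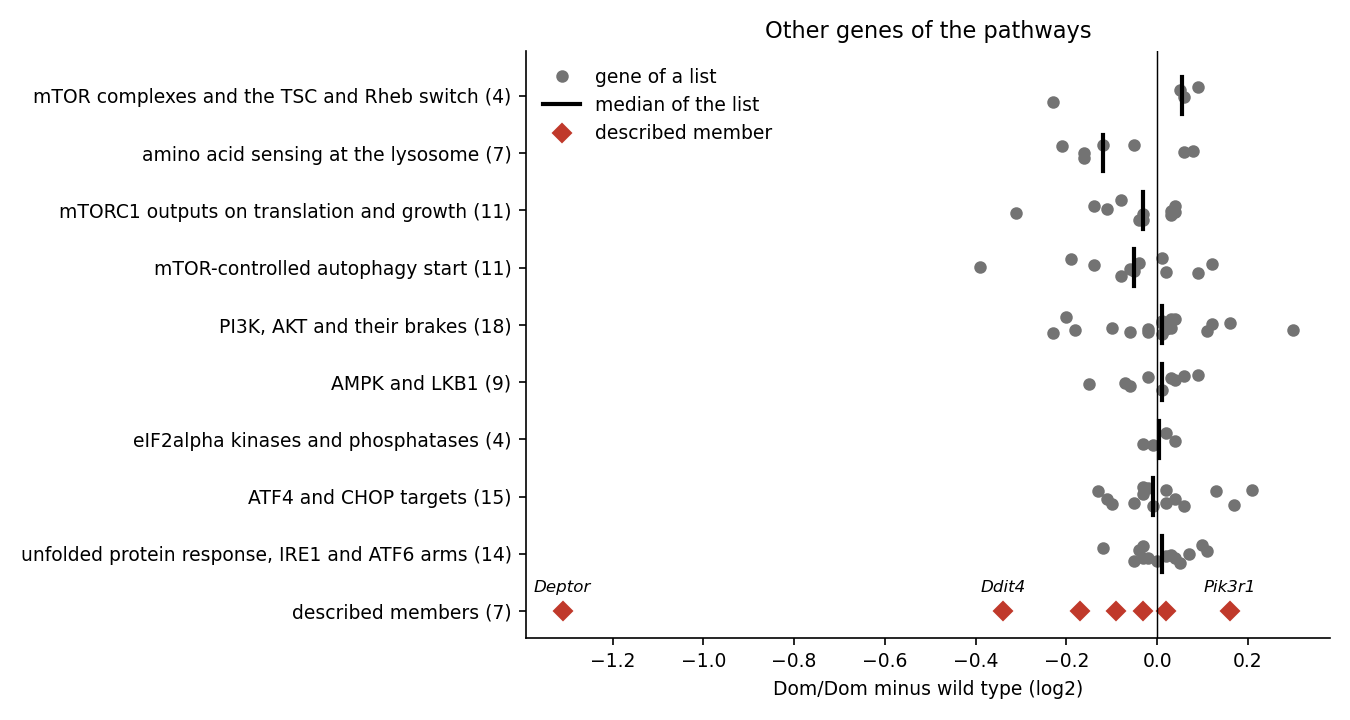
Difference between Dom/Dom and wild type (log2) of 93 other pathway genes by list, each grey circle a gene and each black bar the list's median, with the 7 described members as red diamonds in the bottom line and the number measured in brackets. The other genes lie between -0.39 and 0.30, and Deptor at -1.31 is outside that range.

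The replicate numbers were also compared for the 93 other genes, with a limma F test that had genotype in the fit and was added after the data were seen. Of the 93, 28 passed, where 24.6% of all genes did, so their share was near that of the table as a whole. With array medians subtracted 17 passed, against 14.5% of all genes. The count changed widely when 1 array was left out. Each such fit held 1 array of that replicate number, and the cause of the changes was not tested. Without Dom/Dom replicate 3, Dom/Dom replicate 4 or wild-type replicate 4 the test called 2, 1 and 1 of all genes and 0 of the 93. Leaving out wild-type replicate 3, it called 3 of the 93 and 2.19% of all genes. Leaving out Dom/Dom replicate 2 or wild-type replicate 2, it called 10 and 13 of the 93, and 9.56% and 12.7% of all genes.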

How the data were processed

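The authors deposited log2 values, 1 per probe set and array. The tools named, per the submitters' processing notes, are RMA and Partek; their versions are not given in the sources used here. The RMA method compresses differences of dim probe sets, and precision is limited by the 8 arrays. The table held 16381 probe sets, 7416 of them with 1 gene symbol in the platform annotation. For genes with several, the brightest was used. Of 6855 genes, 6829 were matched to RefSeq by gene identifier.

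Genotype, with no other term, was fitted with limma 3.58.1 in R 4.3.3 (two-sided, Benjamini-Hochberg adjustment over all genes, threshold 0.05). The replicate block, array weights, other scalings, probe set rules and left-out arrays were alternatives. Both genotype fits, with and without the block, were run on simulated data. The simulated noise was independent between arrays, with no replicate effect, so it could not test which fit suits paired arrays. Deviations of same-numbered arrays from their genotype means correlated at 0.47, 0.58, 0.61 and 0.67 for replicates 1 to 4. Arrays of 1 number were therefore taken as paired, on the data's evidence and not the labels'. Arrays of different numbers correlated at 0.11 and 0.14 between replicates 1 and 2, and at 0.21 and 0.38 between 3 and 4. Between these 2 sets the values ran from -0.56 to -0.18. The part of this split in the same-number values was not tested. The block stayed an alternative, so printed standard errors come from the fit without it; for most named pathway genes those of the blocked fit are smaller.

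The members and lists were chosen with earlier results of these data known. Named genes were the members, Sox10 and the 5 genes most like Deptor. From each pathway list they were the genes past the threshold, or otherwise the 2 with the largest difference. Cell type markers past the threshold were named, as were the other measured markers of the crest, glial and melanoblast lists. Eif4b, Eif4a1, Eef2, Larp1, Slc38a2, Slc1a4, Shmt2, Mthfd1l and Xbp1, and markers called with the block alone, were chosen after their values were seen.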

Additional observations from a re-analysis of the deposited data

Results flagged for a closer look

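The search for outliers covered the members, Sox10, the genes most like Deptor, the pathway list means and pathway genes named by threshold or largest difference. An array standing far from the other 3 of its genotype was looked for. It was found in 2 of 84 sets of 4 arrays, where chance alone marks about 5% of sets, or 4.2. Sgk1 was low in wild-type replicate 2 (8.88, against 9.46 to 9.57 in the other wild-type arrays). Eif2b5 was high in wild-type replicate 1 (11.10, against 11.05 to 11.06).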

How the results depend on the processing

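The differences of the 7 measured members kept within 1 pooled SD of their reported values in 11 of 11 alternatives each. For the 8 that left out 1 array this was fixed in advance, since 1 array of 4 cannot move the difference that far. Averaging the probe sets of a gene changed nothing, since each member had 1. Only the other scalings could have moved a member further. With 1 array left out, Deptor ran from -1.45 to -1.16, Ddit4 from -0.43 to -0.26, Ddit3 from -0.20 to -0.14 and Pik3r1 from 0.12 to 0.20, while Rptor (-0.07 to 0.13) included both signs and Akt1 ran from -0.07 to 0.00. Subtracting array medians moved all 7 down: Pik3r1 from 0.16 to 0.10, Atf4 from -0.09 to -0.15, Akt1 from -0.03 to -0.09, Rptor from 0.02 to -0.04, Ddit3 from -0.17 to -0.23, Ddit4 from -0.34 to -0.41 and Deptor from -1.31 to -1.37. The count of genes past the threshold, 33 as fitted, was 103 with the replicate block, 190 with array weights, 4 when all probe sets were tested, and 10 to 51 with 1 array left out, the lowest without wild-type replicates 3 or 4. In the blocked fit without both arrays of a number it was 475, 112, 15 and 13 for replicates 1 to 4. The count of other pathway genes past the threshold, 0 as fitted and with the replicate block, was 1 with array weights and 3 in the blocked fit without replicate 1, and stayed at 0 with 1 array left out. Among the named pathway and marker genes the block changed the calls of Gas7, Cmtm5, Tfap2a, Pou4f1, Prrx1 and Krt8 and no other. Other pathway genes past the replicate number test, 28 as fitted, numbered 17 with array medians subtracted, 18 with quantile normalisation and 0 to 37 with 1 array left out. The shares of all genes that passed were 24.6%, 14.5%, 15.6% and 0.0146% to 33.5% in the same order. The cause of these changes was not tested. With no detection calls, signal over background could not be set against these differences.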
